A study of Homo sapiens with 6 samples.

Results

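The genes described here encode the subunits, activators and inhibitor of the proteasome, the protease that breaks down ubiquitin-tagged proteins. They were taken by symbol, as PSMA, PSMB, PSMC, PSMD, PSME or PSMF followed by a number, with at least 60 counts summed over 6 libraries. Of 44 such symbols among the 43424 in the files, 42 met the minimum. The lowest inside it was PSMA8 with 620 counts. The pair outside it was PSMA6, with 34 counts, and PSMB11, the thymus-specific catalytic subunit, with 2 counts.

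The cells carry the name HL-60, a human acute myeloid leukaemia line given as wild type. The study asked which genes take part in differentiation induced by CIP, the labels' short form for the plant Corydalis incisa (Thunb.) Pers., whose preparation they do not give. In one group, 3 libraries came from cells kept with CIP for 6 months, raised from 2 to 20 µg/ml, and described as resistant to it. In the other, 3 libraries came from cells kept with DMSO for the same 6 months, and all cells grew in RPMI-1640 medium with serum. Expression was read with QuantSeq, which counts short reads near the polyadenylated end of transcripts. The labels do not say that replicates were separate cultures or clones, so the spread behind each p-value is that between these libraries and may be technical.

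Library totals were 9314584 to 10868396 counts with the CIP label and 8143657 to 9759687 with the DMSO label. HL-60 is known for abundant myeloperoxidase and extra copies of MYC. MPO summed to 245628 counts with the CIP label and to 33 counts with the DMSO label, and MYC averaged 280.1 against 41.8 CPM (CPM, counts scaled to library size after TMM scaling, is the unit of every level below). MPO and MYC of the DMSO-labelled libraries thus go against the line's name, while ELANE (333 against 592 CPM) and AZU1 (25.2 against 44.1 CPM), granule proteins of the same marker list, were lower with the CIP label and PRTN3 was higher. Because of MPO and MYC, groups are called by their labels, and "rose" or "fell" is said of the CIP-labelled libraries relative to the DMSO-labelled ones. All 5 promyelocyte markers summed to 9481 to 10048 against 903 to 1044 CPM, and the 4 without MPO to 916 to 1234 against 902 to 1043 CPM, which overlap. Summed levels of 5 monocyte markers were 16.3 to 23.3 CPM in CIP-labelled and 238 to 257 CPM in DMSO-labelled libraries, with FCGR3A at 0 in both groups and CD14 at 0 in the DMSO-labelled one. Summed levels of 5 lymphoid markers were 3.63 to 4.28 against 80.3 to 99.4 CPM, with MS4A1 at 0 in both groups and CD3E at 0 in the DMSO-labelled one. The 3 erythroid markers summed to at most 0.202 CPM with the CIP label and had 0 counts with the DMSO label. The 5 fibroblast and epithelial markers summed to 53.3 to 128 against 129 to 225 CPM, none of them called. The part of these differences in the results below was not tested.

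The 20S core of the proteasome is a barrel of alpha rings around beta rings, and 3 of the beta subunits cut the substrate. The 19S regulatory particle caps the barrel, with ATPases that unfold the substrate and non-ATPase subunits that bind ubiquitin and remove it. In blood cells, and under interferon, PSMB8, PSMB9 and PSMB10 can take the places of PSMB5, PSMB6 and PSMB7, which gives the immunoproteasome and changes the peptides made for MHC class I. Proteasome inhibitors are drugs of blood cancers, and PSMB5 is their main target.

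Interferon is known to induce PSMB8, PSMB9, PSMB10, PSME1 and PSME2. The promoter stretches of members that hold a core of the interferon-stimulated response element are therefore shown first. The motif searched was GAAANNGAAA on both strands, in 250 bases before to 50 bases after each start (RefSeq, GRCh38.p14). Each is written 5′ to 3′ on the strand of its gene, with the motif in capitals.
PSMB10: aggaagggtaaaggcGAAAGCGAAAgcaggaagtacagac
PSME1: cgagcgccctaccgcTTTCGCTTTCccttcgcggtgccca
PSME2: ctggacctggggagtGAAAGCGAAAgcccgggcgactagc
PSMB4: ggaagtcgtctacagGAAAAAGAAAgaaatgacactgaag
PSMA4: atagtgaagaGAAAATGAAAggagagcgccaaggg
These stretches lie at chr16:67936847-67936886 (minus strand), chr14:24136184-24136223 (plus), chr14:24146614-24146653 (minus), chr1:151399490-151399529 (plus) and chr15:78540155-78540189 (plus), in the order shown. Of 37 members with a promoter in the table, 5 (13.5%) held the motif, against 2.85% of the promoters of all tested genes and 3.65% of all promoters. PSMB10, PSME1 and PSME2 rose, PSMA4 fell and PSMB4 was not called, as described below. PSMB8, which fell slightly, and PSMB9, which was not called, had a promoter in the table without the motif. The members with no entry were PSMA7, PSMB1, PSMB6, PSMB7 and PSMD4.

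All 42 members were tested with edgeR's quasi-likelihood test over 12844 genes. With the CIP label 22 rose and 6 fell at an adjusted p under 0.05, and 14 were not called. Among all tested genes, 73.1% were called, 34.9% higher and 38.2% lower, while 66.7% of the members were called. The share called was thus near the background, and of the called members more rose than fell, which was narrower with library totals. At least 2-fold calls covered 6 members (PSMA3, PSMA5, PSMA8, PSMB10, PSMC3 and PSMD5), where 39.0% of all tested genes had one. Scaled to library totals instead, 19 rose and 16 fell, where 26.9% of all genes were higher and 46.1% lower. The median log2 fold change of the members was 0.19, beside -0.03 over all tested genes. With library totals the member median turned to -0.04, beside -0.26 over all genes, so the members stood 0.23 above the median gene under both scalings. The libraries of the 2 groups did not overlap for 30 members, 24 with CIP above and 6 with CIP below, where all tested genes gave 75.5%, 36.1% above and 39.3% below.

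**Figure D1:**
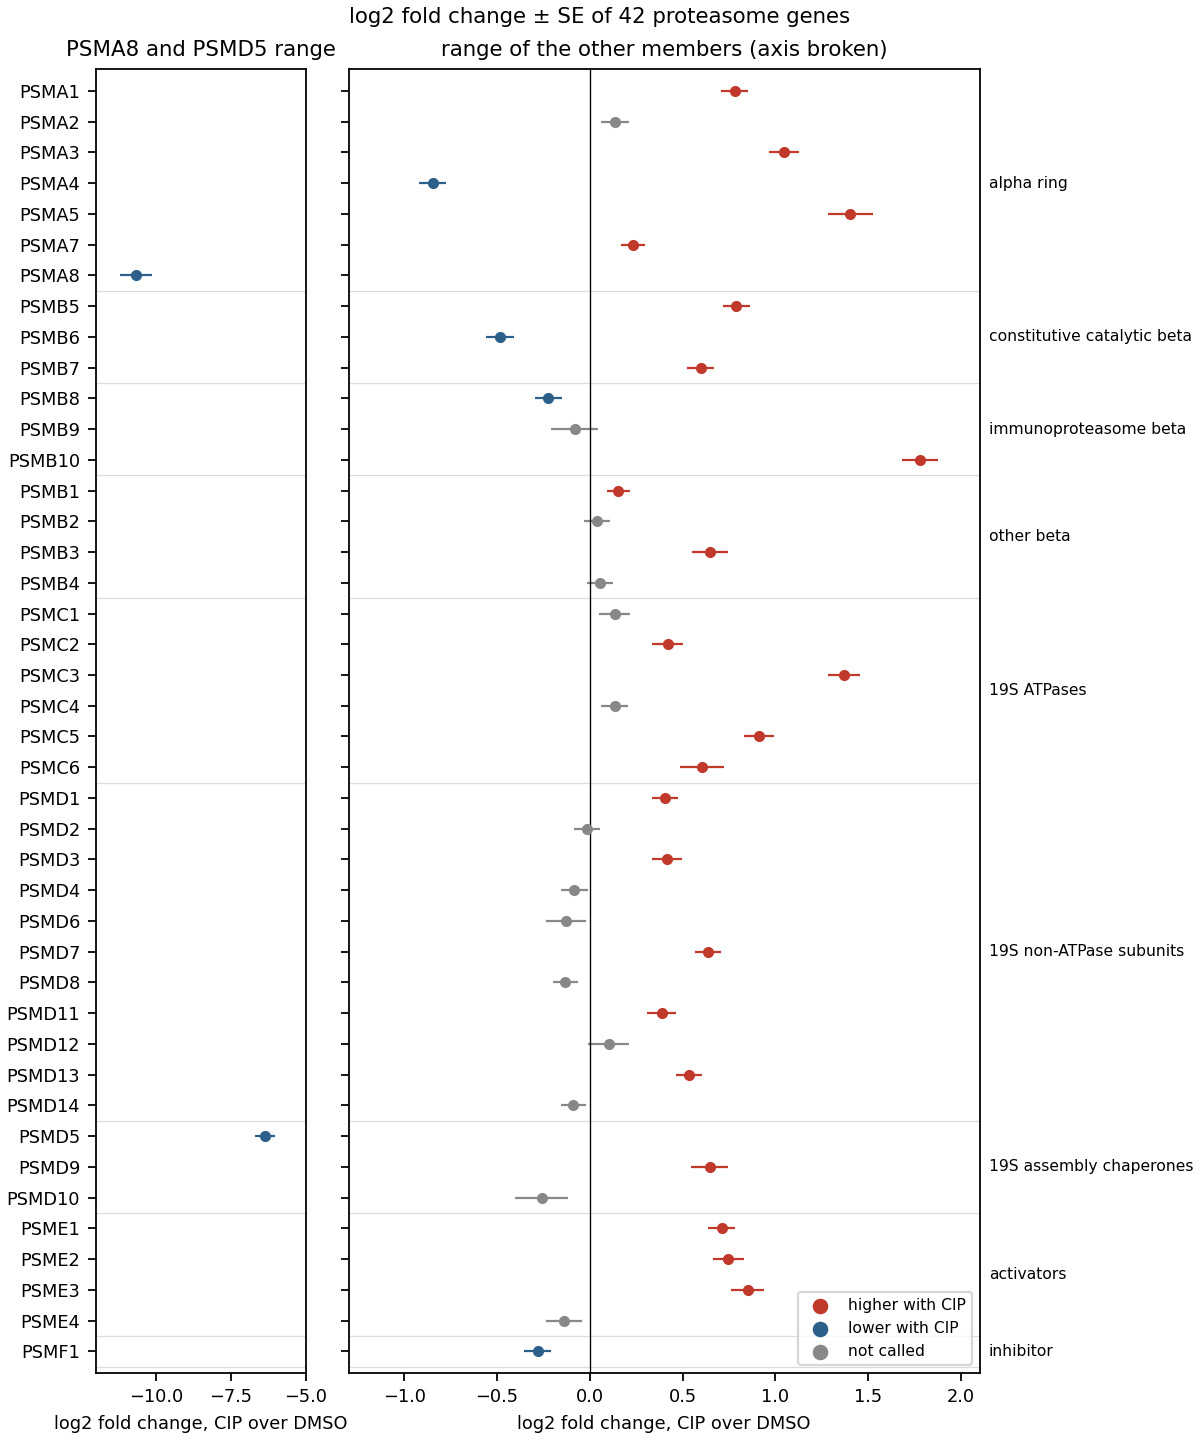
log2 fold change (CIP over DMSO, points) with its SE (bars) for 42 proteasome genes, grouped by role, with red for genes that rose, blue for genes that fell and grey for genes not called. The axis is broken, since PSMA8 and PSMD5 lie far below the other members, and the fitted value of PSMA8 is no bound because it had 0 counts with the CIP label.

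Among the immunoproteasome subunits the 3 genes did not move together. PSMB10 rose, PSMB8 fell slightly and PSMB9 was not called. PSMB10 (chromosome 16, 67934506 to 67936850, GRCh38) had 108, 99.94 and 104.9 CPM in CIP-labelled libraries, against 34.96, 29.63 and 26.24 CPM in DMSO-labelled ones. Every CIP-labelled library stood far above every DMSO-labelled one, with a fold change of 1.78 ± 0.10 on the log2 scale (SE, edgeR adjusted p = 1.4e-17). PSMB8 (chromosome 6, 32840717 to 32844679) had 114.7, 113 and 121.4 CPM with the CIP label, against 139.9, 130.4 and 137.6 CPM with the DMSO label. The groups did not overlap, but the log2 fold change was small, -0.22 ± 0.07 (edgeR adjusted p = 0.00613). PSMB9 (chromosome 6, 32854192 to 32859851) had 31.11, 27.24 and 27.23 CPM in CIP-labelled and 32.58, 27.91 and 29.97 CPM in DMSO-labelled libraries. Its groups overlapped, with a log2 fold change of -0.08 ± 0.13 (edgeR adjusted p = 0.565). With library totals PSMB9 was called lower, at -0.31 (adjusted p = 0.0277).

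The constitutive catalytic subunits also split, and all 3 were called, as were 73.1% of all tested genes. PSMB5, the chymotrypsin-like subunit, had 153.9, 150.2 and 167.5 CPM with the CIP label, against 92.8, 92.44 and 87.53 CPM with the DMSO label. PSMB7, the trypsin-like subunit, had 222, 242.7 and 257.4 CPM in CIP-labelled libraries, against 164.1, 166.5 and 146.8 CPM in DMSO-labelled ones. Both rose without overlap, by 0.79 ± 0.07 for PSMB5 and 0.60 ± 0.07 for PSMB7 on the log2 scale (SE, edgeR adjusted p = 1.55e-11 and 4.14e-09). PSMB6, the caspase-like subunit, went the other way, with 97.36, 94.41 and 104.7 CPM against 130.6, 144.9 and 138.9 CPM. Its log2 fold change was -0.48 ± 0.08 (edgeR adjusted p = 7.11e-07).

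**Figure D2:**
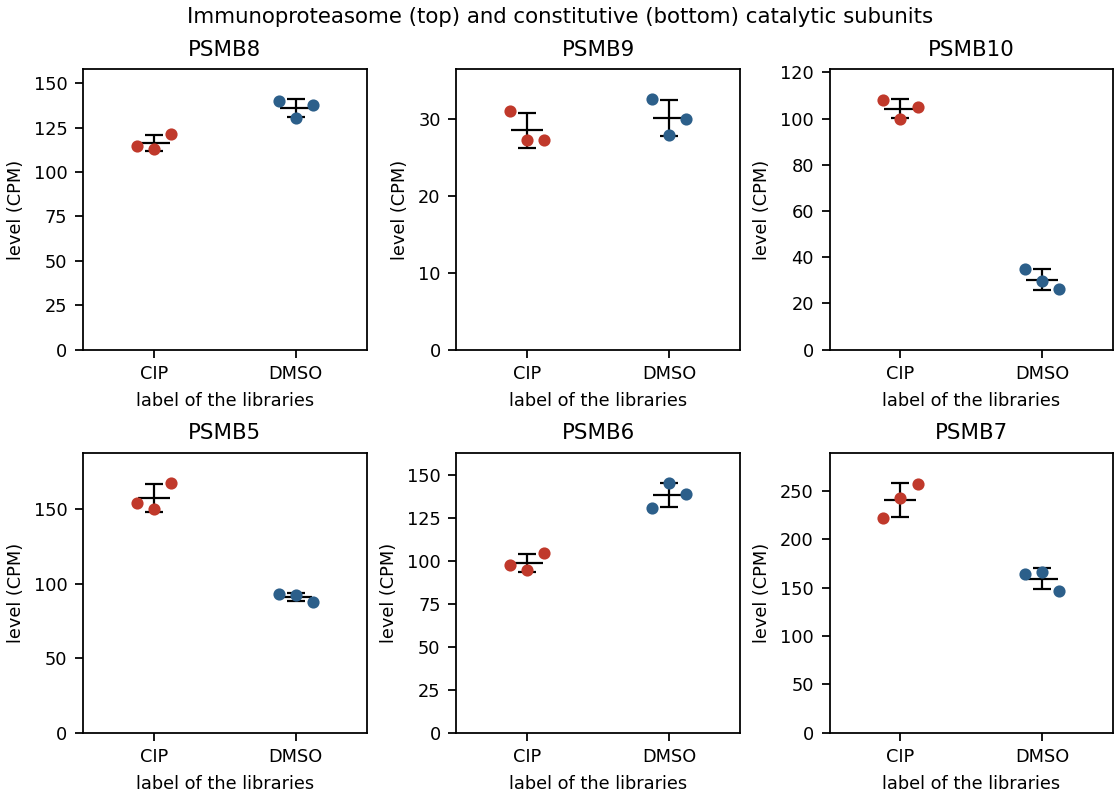
Level in CPM (vertical axis, from 0) of the 3 immunoproteasome subunits (top) and the 3 constitutive subunits they can replace (bottom) in each library, with the mean and SD of 3 libraries per label as bars. PSMB10, PSMB5 and PSMB7 lie higher with the CIP label, PSMB8 and PSMB6 lower, and PSMB9 overlaps.

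Each immunoproteasome subunit was then set against the subunit it replaces, as a ratio of counts within a library, which does not depend on scaling. The ratio of PSMB8 to PSMB5 was 0.745, 0.753 and 0.725 with the CIP label, against 1.51, 1.41 and 1.57 with the DMSO label, 2.02-fold lower. PSMB10 to PSMB7 was 0.487, 0.412 and 0.408 in CIP-labelled libraries and 0.213, 0.178 and 0.179 in DMSO-labelled ones, 2.29-fold higher. PSMB9 to PSMB6 was 0.320, 0.289 and 0.260 against 0.249, 0.193 and 0.216, 1.32-fold higher. The 3 exchangeable pairs thus shifted in opposite directions, none with overlapping groups. Summed over the 3 genes of each kind, the ratio was 0.503 ± 0.030 with the CIP label and 0.507 ± 0.037 with the DMSO label (SD, n = 3 each), and the groups overlapped. No p is given for these ratios, since 3 against 3 libraries cannot go below p = 0.10 in an exact permutation test.

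**Figure D3:**
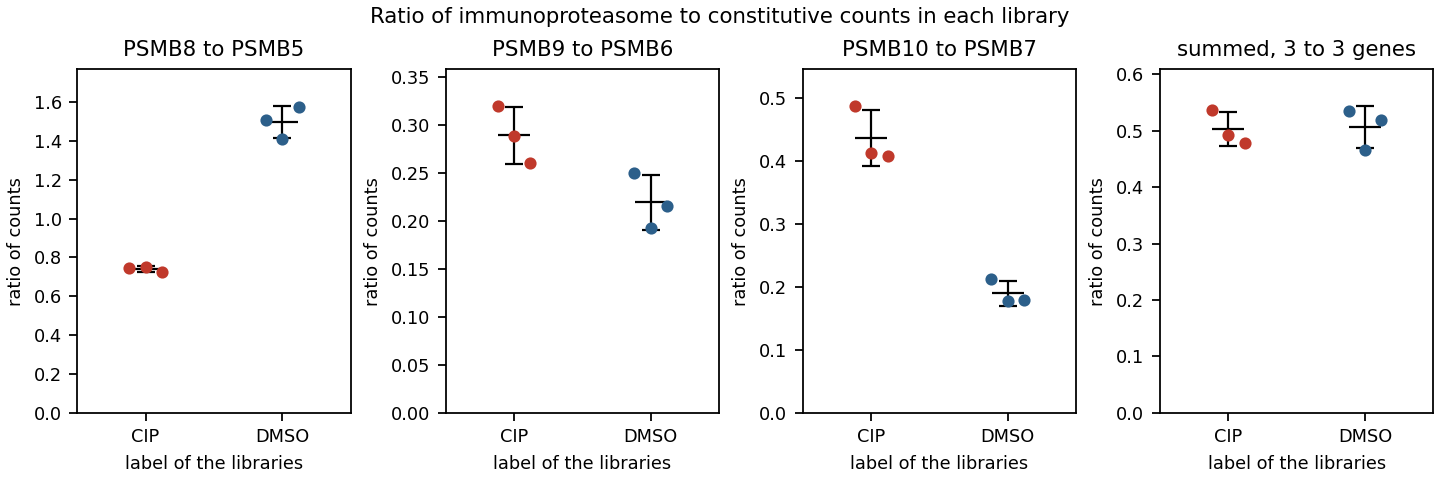
Ratio of immunoproteasome to constitutive counts (vertical axis, from 0) in each library for the 3 exchangeable pairs and for the sums of the 3 genes of each kind, with mean and SD of 3 libraries per label. PSMB8 to PSMB5 is lower with the CIP label, the other pairs are higher, and the sums overlap.

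The alpha ring forms the gate of the core. Of its 7 members 4 rose, 2 fell and PSMA2 was not called (85.7% called, beside 73.1% of all tested genes). The groups did not overlap for any of the 7, nor did they for 75.5% of all tested genes. PSMA5 had 55.5, 61.34 and 53.76 CPM in CIP-labelled libraries, against 22.48, 23.88 and 17.87 CPM in DMSO-labelled ones. PSMA3 had 140.6, 164.3 and 163.4 CPM with the CIP label and 79.93, 77.67 and 69.1 CPM with the DMSO label. Each of these alpha subunits was more than doubled, with log2 fold changes of 1.40 ± 0.12 and 1.05 ± 0.08 (SE, edgeR adjusted p = 1.36e-12 and 1.06e-13). PSMA1 had 158.2, 149 and 145.2 CPM against 89.43, 83.72 and 90.36 CPM, or 0.78 ± 0.07 on the log2 scale (edgeR adjusted p = 2.27e-11). PSMA4 went the other way from PSMA1, PSMA3 and PSMA5. Its levels were 232.2, 278.5 and 252.2 CPM with the CIP label and 476.9, 481.2 and 415.1 CPM with the DMSO label. It fell by 0.85 on the log2 scale (SE 0.07, edgeR adjusted p = 9.72e-13). PSMA7 rose slightly (0.23 ± 0.06 on the log2 scale, edgeR adjusted p = 0.00149) and was not called with library totals (adjusted p = 0.981). PSMA2 stood at 128.6, 142 and 130.4 CPM in CIP-labelled and at 127.7, 125.2 and 112.3 CPM in DMSO-labelled libraries, with a log2 fold change of 0.13 ± 0.07 (edgeR adjusted p = 0.104).

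PSMA8 is an alpha subunit known from the testis, where it takes the place of PSMA7 in the proteasome of germ cells. Its counts were 0 in every CIP-labelled library, against 229, 212 and 179 with the DMSO label, or 22.68, 20.33 and 20.24 CPM. Against 3 counts over the CIP-labelled group it was at least 199-fold lower (edgeR adjusted p = 5.59e-18). The gene lies on chromosome 18 (26133869 to 26193355). Over the 175 tested genes of that chromosome the median log2 fold change was 1.04, and 70.3% of them rose.

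Of the 4 other beta subunits, which do not cut the substrate, 2 rose and 2 were not called. PSMB3 had 88.46, 103.8 and 75.95 CPM with the CIP label, against 56.06, 53.8 and 61.3 CPM with the DMSO label, which is 0.65 ± 0.10 on the log2 scale (SE, edgeR adjusted p = 3.97e-07). PSMB1 had 535.1, 504.8 and 558.4 CPM against 485.1, 493.1 and 459.3 CPM, at 0.15 ± 0.06 (edgeR adjusted p = 0.0275). That call is weak, since it was lost in 8 of 15 alternatives, among them without CIP replicate 1 (adjusted p = 0.051), CIP replicate 3 (0.0678), DMSO replicate 1 (0.0565) or DMSO replicate 3 (0.131). PSMB2, at 192.2, 225.3 and 186.5 CPM in CIP-labelled and 199.9, 187.8 and 200.9 CPM in DMSO-labelled libraries, overlapped between groups and was not called (0.04 ± 0.07, edgeR adjusted p = 0.644). PSMB4 was not called either (0.05 ± 0.07 on the log2 scale). With library totals PSMB2 and PSMB4 were called lower, at -0.19 and -0.18.

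In the 19S particle 9 of 17 members rose, none fell and 8 were not called (52.9% called, beside 73.1% of all tested genes). Of all tested genes 34.9% were higher and 38.2% lower. The 19S subunits ADRM1 and SEM1 do not match the symbol rule. ADRM1 rose by 1.74 and SEM1 fell by 0.25 on the log2 scale, and neither is in these counts or in the sums below. The 17 members of the 20S core gave 9 higher, 4 lower and 4 not called (76.5% called, near the 73.1% of all tested genes). These counts were not tested against each other, and with library totals the 19S particle had 8 higher and 5 lower, the core 7 and 7. The summed counts of the 19S particle over those of the core were 0.802, 0.748 and 0.760 with the CIP label and 0.683, 0.697 and 0.749 with the DMSO label. The groups overlapped there by a narrow margin.

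Of the 6 ATPases, which form the unfolding ring of the 19S base, 4 rose and the others were not called. Called were thus 66.7% of them, beside 73.1% of all tested genes. PSMC3 had 114.1, 103.1 and 110.8 CPM in CIP-labelled libraries, against 44.57, 40.75 and 41.62 CPM in DMSO-labelled ones. PSMC5 had 166, 152.9 and 152.7 CPM with the CIP label and 84.48, 92.54 and 73.51 CPM with the DMSO label. The groups lay far apart for both, at log2 fold changes of 1.37 ± 0.09 and 0.91 ± 0.08 (SE, edgeR adjusted p = 5.89e-16 and 3.55e-12). PSMC6 had 36.42, 38.4 and 42.76 CPM against 27.14, 25.41 and 24.77 CPM (0.61 ± 0.12, edgeR adjusted p = 3.35e-05), and PSMC2 rose by 0.42 ± 0.08. PSMC4 was at 131.8, 125 and 128.3 CPM with the CIP label and at 114.9, 115.4 and 120.8 CPM with the DMSO label. Its groups did not overlap, yet it was not called (0.13 ± 0.07, edgeR adjusted p = 0.093). PSMC1 was not called (0.13 ± 0.08, edgeR adjusted p = 0.144), but was called higher without CIP replicate 1 (adjusted p = 0.0467) or CIP replicate 2 (0.0273).

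The 11 non-ATPase subunits among the members gave 5 that rose and 6 that were not called, with log2 fold changes of -0.13 to 0.64. The share called was 45.5%, beside 73.1% of all tested genes. PSMD7, the partner of the deubiquitinase PSMD14, had 178.8, 200.4 and 180.9 CPM in CIP-labelled libraries, against 118.8, 122.1 and 119.5 CPM in DMSO-labelled ones. PSMD13, a lid subunit, had 245.7, 212.8 and 230.3 CPM with the CIP label and 163.6, 162.7 and 149.7 CPM with the DMSO label. PSMD3, also of the lid, had 141.6, 138.3 and 141 CPM against 94.78, 102.2 and 119 CPM. These lid subunits rose by 0.64 ± 0.07, 0.53 ± 0.07 and 0.42 ± 0.08 on the log2 scale, in that order (SE, edgeR adjusted p = 7.55e-10, 3.14e-08 and 1.71e-05). PSMD1, a scaffold of the base, and the lid subunit PSMD11 rose by 0.40 and 0.39, though PSMD11 was not called with library totals (0.16, adjusted p = 0.0739). PSMD2, the other base scaffold, stood at 139.1, 136.8 and 144.2 CPM with the CIP label and 143, 139.3 and 142.5 CPM with the DMSO label, overlapping (-0.02 ± 0.07, edgeR adjusted p = 0.845). PSMD14, which removes ubiquitin from the substrate, and PSMD4, a ubiquitin receptor, were not called, at -0.09 ± 0.07 and -0.08 ± 0.07, nor were PSMD6, PSMD8 and PSMD12. With library totals PSMD2, PSMD4, PSMD6, PSMD8 and PSMD14 were called lower, at -0.25 to -0.36.

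PSMD5, PSMD9 and PSMD10 are chaperones that help to assemble the 19S base and are not part of the finished particle. PSMD5 (chromosome 9, 120816053 to 120842922) had 3, 0 and 6 counts in CIP-labelled libraries, against 265, 315 and 229 counts in DMSO-labelled ones. In CPM these are 0.347, 0 and 0.605 against 26.25, 30.21 and 25.9, so that the gene was close to the detection limit with the CIP label, where 3 counts correspond to 0.303 to 0.347 CPM. The log2 fold change was -6.38 ± 0.33 (SE, edgeR adjusted p = 3.04e-18), while the 526 tested genes of chromosome 9 had a median of 0.27. PSMD9 had 55.62, 62.05 and 63.04 CPM with the CIP label and 38.13, 40.08 and 37.32 CPM with the DMSO label. It rose without overlap, by 0.65 ± 0.10 on the log2 scale (edgeR adjusted p = 6.76e-07). PSMD10, also named gankyrin, had 19.19, 23.55 and 22.09 CPM against 27.04, 28.29 and 22.28 CPM and was not called (-0.26 ± 0.14, edgeR adjusted p = 0.0992), although it was called lower without DMSO replicate 3 (-0.37, adjusted p = 0.0352) and with library totals (-0.49, adjusted p = 0.00248). In bulk samples such as these, fewer cells that use a gene and less RNA per cell cannot be told apart.

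**Figure D4:**
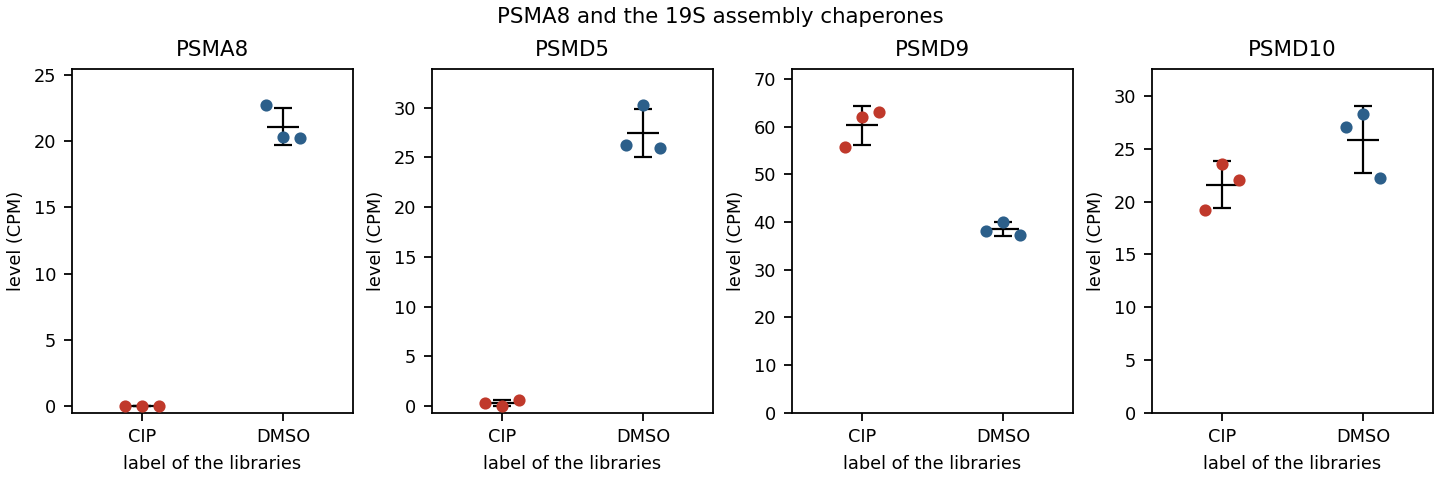
Level in CPM (vertical axis) of PSMA8 and of the 3 chaperones of 19S assembly in each library, with mean and SD of 3 libraries per label. PSMA8 and PSMD5 lie at or near 0 with the CIP label and at 20.24 to 30.21 CPM with the DMSO label, whereas PSMD9 is higher with the CIP label and PSMD10 overlaps.

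Activators open the gate of the core without the 19S particle. Of the 4, 3 rose and PSME4 was not called (75.0% called, near the 73.1% of all tested genes), while the inhibitor PSMF1 fell. PSME1 had 162, 157 and 164.3 CPM in CIP-labelled libraries, against 101.9, 98.1 and 95.23 CPM in DMSO-labelled ones. PSME2 had 97.13, 103.9 and 100.1 CPM with the CIP label and 63.29, 57.15 and 59.04 CPM with the DMSO label. These genes encode the subunits of 1 ring that interferon induces, and both rose, by 0.71 ± 0.07 and 0.75 ± 0.08 on the log2 scale (SE, edgeR adjusted p = 8.63e-11 and 8.35e-10). Their count ratio was 1.61 ± 0.08 with the CIP label and 1.65 ± 0.06 with the DMSO label (SD, n = 3 each), with overlapping groups. PSME3, the activator of the nucleus, had 94.93, 101.8 and 112.7 CPM against 61.31, 57.34 and 52.93 CPM, at 0.85 ± 0.09 (edgeR adjusted p = 1.47e-10). PSME4, a large single-chain activator, had 51.34, 52.53 and 51.64 CPM in CIP-labelled and 58.73, 51.69 and 60.96 CPM in DMSO-labelled libraries. Its groups overlapped (-0.14 ± 0.10, edgeR adjusted p = 0.194), and it was called lower with library totals (-0.37, adjusted p = 0.000961). PSMF1 had 106.7, 103.4 and 108.6 CPM with the CIP label, against 127.7, 134.8 and 124.5 CPM with the DMSO label, or -0.28 ± 0.07 on the log2 scale (edgeR adjusted p = 9.59e-04).

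Summed levels of the classes are set side by side, first with TMM scaling and then as shares of library totals, since the scaling decides whether some stand above or below 1. The 4 activators summed to 416 ± 11.7 CPM with the CIP label and 273 ± 11.2 CPM with the DMSO label (SD, n = 3 each), a ratio of 1.53, or 1.30 with library totals. The ATPases summed to 681 ± 27.2 against 479 ± 6.07 CPM, a ratio of 1.42, or 1.21 with library totals. The constitutive and the immunoproteasome subunits had nearly the same ratio, 1.28 and 1.27, or 1.09 and 1.08 with library totals. Non-ATPase subunits (1.14), other beta subunits (1.10) and the alpha ring (1.04) turned below 1 with library totals, at 0.974, 0.943 and 0.889. The chaperones (0.895, or 0.764 with library totals) and the inhibitor (0.824, or 0.703) were below 1 under both. A class sum is led by its most abundant members, so the ratio of the immunoproteasome subunits is mostly that of PSMB8 and PSMB10, which moved in opposite directions. The differences between classes were not tested.

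Members lay on 16 chromosomes, and the chromosomes differed in their medians. Of all 42 members, 31 stood above the median log2 fold change of their own chromosome and 11 below it, with a median difference of 0.29 over all 42. Chromosome 14 carried 6 members, of which 5 rose, where 40.9% of its 416 tested genes rose. The member median was 0.73, against 0.15 over all tested genes of that chromosome. PSME1 (24136194 to 24138962) and PSME2 (24143365 to 24146610) are neighbours there. PSMA4, on chromosome 15, stood at -0.85 where the 435 tested genes of that chromosome had a median of -0.75. PSMB8, at -0.22, was likewise close to the chromosome 6 median of -0.19.

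A core of the antioxidant response element, through which NFE2L1 acts on proteasome genes, was searched as TGACNNNGC on both strands. It stood in 11 of the 37 member promoters (29.7%), against 15.4% for all tested genes and 13.6% for all promoters. Of these 11 genes 6 rose, 1 fell and 4 were not called, where 22 of all 42 members rose, 6 fell and 14 were not called. Among all tested genes 73.1% were called, 34.9% higher and 38.2% lower. A link between the motif and the calls was not tested. As examples, matches of PSMB3 and PSMD3, which rose, and of PSMD5, which fell, are shown on the strand of the gene with the motif in capitals. Those of PSMD1, PSMD9, PSME1 and PSME2, which rose, and of PSMB9, PSMC4, PSMD12 and PSME4, not called, are not shown. PSMD3 held another match, on the other strand and after the start, which is not shown.
PSMB3: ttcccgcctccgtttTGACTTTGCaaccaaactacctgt
PSMD3: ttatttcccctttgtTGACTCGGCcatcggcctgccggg
PSMD5: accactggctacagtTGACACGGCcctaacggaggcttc
They lie at chr17:38752622-38752660 (plus strand), chr17:39980755-39980793 (plus) and chr9:120843033-120843071 (minus), in that order. The gamma-activated site, searched as TTCNNNGAA, stood in 5 member promoters (13.5%), those of PSMA2, PSMA8, PSMC4, PSMD3 and PSME3, against 6.29% for all tested genes. A match is a run of letters in the window and was not tested for binding.

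Other genes of proteasome assembly and substrate delivery were read from a list of 24, all tested. Of these 13 rose, 4 fell and 7 were not called, so that 70.8% were called beside 73.1% of all tested genes, with a median log2 fold change of 0.30, and with library totals 8 rose and 6 fell. ADRM1, a ubiquitin receptor of the 19S particle, averaged 271.2 ± 7.5 CPM with the CIP label and 81.4 ± 0.49 CPM with the DMSO label (SD, n = 3 each). USP14, a deubiquitinase of the particle, averaged 205.5 ± 4.5 against 81.6 ± 3.3 CPM, and the thioredoxin-like protein TXNL1 93.6 ± 7.1 against 38.0 ± 2.8 CPM. These were the largest rises of the list (edgeR adjusted p = 1.31e-21, 5.51e-18 and 1.97e-14), and USP14 and TXNL1 lie on chromosome 18, where most genes rose. The shuttle factor UBQLN2 and the small 19S subunit SEM1 fell, by 0.55 and 0.25 on the log2 scale. UBQLN2 was not called without DMSO replicate 1 (adjusted p = 0.102), and its groups overlapped.

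Of 11 regulators of proteasome genes 5 rose, 3 fell and 3 were not called (72.7% called, near the 73.1% of all tested genes), with a median log2 fold change of 0.25, and with library totals 2 rose and 4 fell. SYVN1, a ubiquitin ligase of the endoplasmic reticulum, averaged 38.9 ± 3.6 CPM with the CIP label and 11.4 ± 0.33 CPM with the DMSO label (SD, n = 3 each). DDI2, the protease that activates NFE2L1, averaged 58.2 ± 1.6 against 31.7 ± 1.9 CPM, and NFE2L1 itself rose by 0.38 ± 0.11 on the log2 scale (SE, edgeR adjusted p = 0.00295) but was not called with library totals (0.15, adjusted p = 0.224). NFYB, a CCAAT-binding subunit, rose (0.49 ± 0.14) and was likewise not called with library totals (adjusted p = 0.0995), while its partner NFYA fell by 0.94. STAT3 and FOXO4, both transcription factors, fell by 0.94 and 0.82.

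Regulators of the immunoproteasome and genes of peptide loading made up the last list, of 18 genes, in which 9 rose, 4 fell and 5 were not called (72.2% called, again near the 73.1% of all tested genes). The median log2 fold change was 0.14, and with library totals 6 rose and 7 fell. IRF1, a transcription factor that induces the immunoproteasome genes, had 53.65, 51.92 and 56.68 CPM in CIP-labelled libraries, against 10.6, 10.45 and 10.4 CPM in DMSO-labelled ones. NLRC5, the activator of MHC class I genes, had 65.45, 54.58 and 56.18 CPM with the CIP label and 20.3, 20.71 and 19.79 CPM with the DMSO label. ERAP2, which trims peptides for MHC class I, had 23.36, 28.88 and 23.3 CPM against 3.66, 3.07 and 3.51 CPM. All of them rose without overlap, by 2.37 ± 0.13, 1.53 ± 0.12 and 2.88 ± 0.20 on the log2 scale, in that order (SE, edgeR adjusted p = 8.32e-18, 5.56e-14 and 1.16e-14). IRF8, an interferon regulatory factor of monocytes, was at 0 counts with the CIP label and at 1394 summed counts with the DMSO label. STAT2, which carries interferon signals, fell by 0.50 on the log2 scale. The peptide transporter genes TAP1 and TAP2, which lie beside PSMB9 and PSMB8, are named here for that place after their values were seen. TAP2 rose, with 81.98, 72.6 and 89.87 CPM in CIP-labelled and 44.57, 45.36 and 45.8 CPM in DMSO-labelled libraries (0.85 ± 0.09 on the log2 scale, edgeR adjusted p = 8.13e-10). TAP1 was not called, at 19.3 ± 2.2 CPM with the CIP label and 19.5 ± 3.4 CPM with the DMSO label (SD, n = 3 each).

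Of the 42 members, 18 overlap another annotated gene, 6 of them within the last 500 bases (PSMA3, PSMB7, PSMC1, PSMC2, PSMD6 and PSME2), and the labels do not say whether the authors' counting used strand. PSMA3 is overlapped there by PSMA3-AS1, with 547, 645 and 723 counts in CIP-labelled and 385, 535 and 424 counts in DMSO-labelled libraries, and PSMC1 by NRDE2, with 525, 490 and 523 against 258, 286 and 261 counts. If strand was not used, reads of these genes and their partners cannot be told apart. RefSeq also lists 47 pseudogenes of 19 members, 13 of them of PSMC1, and the values of those members are uncertain where reads are shared.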

How the data were processed

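Expression was measured in 6 libraries, 3 labelled CIP and 3 labelled DMSO, grouped by sample title. The deposited files hold the authors' whole-number counts per gene symbol, and nothing in the values points to normalization. The kit was QuantSeq from Lexogen, per the labels' protocols. GRCh38, STAR, HTSeq, fastp and bcl2fastq (2.20.0.422) are named, without role or setting, by the submitters' processing notes. The labels do not mention molecular identifiers, so floors cover counting error only.

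Counts were tested with edgeR 4.0.16 in R 4.3.3 (quasi-likelihood, robust dispersion) after filterByExpr and TMM scaling, with the label as the only term. Tests were 2-sided, p-values were adjusted by Benjamini and Hochberg's method over 12844 genes, and genes were called at an adjusted p under 0.05. The steps were tested on simulated data in which few genes changed, as many up as down. In this contrast 73.1% of tested genes were called, so that test cannot show how scaling and calls behave here. The SE is the log2 fold change divided by the square root of F. Values are means ± SD over 3 libraries. A floor is 3 counts over a group, 0.106 CPM with the CIP label. Replicates of a group gave a chi-square of 3.90 to 8.14 per gene, above sampling noise, and all were kept as separate libraries.

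Positions come from RefSeq (GRCh38.p14), matched by symbol for all 42 members, strands from GENCODE and promoters from RefSeq for 37 members. Values in every library are given for catalytic subunits, activators, the inhibitor and, in each other class, up to 3 called members per direction with the largest change and the member with the smallest. Other lists are named by up to 3 called genes per direction at 5 CPM or more, and other genes of these lists named in the text were chosen after their values were seen. Some genes that this rule names are not reported here. The members and lists were chosen with earlier results of these data known. As alternatives, scaling used library totals, RLE or the upper quartile, and other fits had no low-count filter, a minimum of 1 CPM in 3 libraries, no robust dispersion, DESeq2 1.42.0, limma-voom (limma 3.58.1), the replicate block or 1 library left out.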

Additional observations from a re-analysis of the deposited data

How the results depend on the processing

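Of the 22 members that rose, 19 kept their call under all 15 alternatives, with PSMA7, PSMB1 and PSMD11 the exceptions, and all 6 that fell kept theirs. Of the 14 not called, 3 stayed so under all of them (PSMA2, PSMC4 and PSMD12). Library totals moved most: 16 members were called lower in place of 6, 7 in place of 4 in the core and 5 in place of 0 in the 19S particle, the member median was -0.038 in place of 0.19, and PSMB9 was called (-0.31). RLE scaling, upper-quartile scaling, DESeq2 and leaving out DMSO replicate 3 each called 1 member of the 19S particle lower in place of 0, namely PSMD8. Members not called crossed 0 with library totals, at -0.10 (PSMA2), -0.19 (PSMB2), -0.18 (PSMB4), -0.10 (PSMC1), -0.10 (PSMC4) and -0.13 (PSMD12), as did PSMB1 at -0.078. PSMB2 also did so at -0.00738 with upper-quartile scaling, -0.040 without CIP replicate 2 and -0.00190 without DMSO replicate 2, PSMB4 at -0.021 without DMSO replicate 3, and PSMD2 at 0.00274 without a low-count filter, 0.00117 without CIP replicate 1 and 0.012 without CIP replicate 2. Over the 6 fits without one library, PSMB2 ranged up to 0.102 and PSMB4 up to 0.102, and PSMD2 down to -0.038. Leaving out each library gave 21 to 23 members higher and 6 to 8 lower, with medians of 0.17 to 0.24. In the core 8 to 9 were then higher, in the 19S particle 9 to 10 higher and 0 to 1 lower. Causes of these shifts were not tested. Same-numbered libraries did not deviate together (correlations of -0.027 to -0.0099). No pairing by number was thus seen, but 3 libraries per group cannot show that there was none. With the replicate block 21 members rose and 6 fell, and PSMB1 was the call lost (adjusted p = 0.073). Depth limits PSMA8 and PSMD5, where a count of 3 per library is 0.303 to 0.347 CPM with the CIP label.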

Other observations

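PSMA6, an alpha subunit that every 20S core needs, had 3, 17 and 4 counts in CIP-labelled libraries and 4, 1 and 5 counts in DMSO-labelled ones, so it was outside the members under both labels. It lies on chromosome 14 (35278558 to 35317493), inside the annotated read-through gene PRORP-PSMA6 (35121839 to 35317471) but for its last bases. PRORP-PSMA6 had 0, 1 and 0 counts with the CIP label and 0, 1 and 0 counts with the DMSO label. Why few reads were assigned to PSMA6 was not tested, and its level is not known from these counts. PSMB8-AS1, an antisense transcript at the start of PSMB8, had 129, 142 and 158 counts in CIP-labelled and 253, 270 and 215 counts in DMSO-labelled libraries.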
